A study of Mus musculus with 9 samples.

Results

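The genes described here encode the proteins of the mitochondrial ribosome. They were taken by name, as all autosomal genes of the deposited matrices whose symbol is Mrpl or Mrps followed by a number and at most 1 letter, and 78 of the 28052 genes in the count matrix met this rule. The rule uses names alone, though the set was picked for description with earlier results of these data known. RNA was sequenced from growing mouse oocytes of 3 genotypes, XX, XO and XY, to ask how the sex chromosome complement affects transcript levels, with 3 samples per genotype. All females were 18 dpp (days postpartum). Each sample pooled 30 oocytes, 10 of them 50–55 µm and 20 of them 55–60 µm in diameter. XY females and XX littermates were the offspring of B6.Y TIR males mated with B6 females, whose Y chromosome fails to direct testis differentiation on the B6 background. XO females were sired by Paf carriers, a stock that was bought on C3H/HeSnJ and then backcrossed to B6, so that the XO genotype and its breeding cannot be told apart. Libraries were made by Smart-seq3 with unique molecular identifiers (UMIs) at the 5′ end of each transcript. Levels are given in normalized CPM, the deposited unit, in which the UMIs of a gene were scaled to CPM by the total of gene UMIs of the sample times a TMM factor made from the ERCC spike-in RNAs. The factor was computed within the spike-ins, so it reflects the balance among them and not their amount. Spike-ins made up 0.204% of UMIs in XX3 and 0.862% in XY1, with factors of 1.25 and 1.01. The unit thus rests on gene totals, shifted by this factor. Because RNA was pooled, fewer oocytes with a transcript and less of the transcript per oocyte cannot be told apart.

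Mitochondria translate the few proteins encoded by their own DNA, all of them subunits of the oxidative phosphorylation complexes, on a ribosome of their own. Its RNA is made inside the organelle, whereas all of its proteins are encoded in the nucleus, made in the cytosol and imported. A part of the proteins has bacterial counterparts, and the others are found in mitochondria only. The small subunit decodes the mRNA and the large subunit forms the peptide bond beside the inner membrane. Growing oocytes multiply their mitochondria and pass them on to the embryo.

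The 78 genes lay on 17 autosomes, with 11 on chromosome 11 and 8 on chromosome 17. By the structure of the ribosome, 51 of them encode proteins of the large subunit and 26 proteins of the small subunit. Mrps30 and Mrps18a were counted with the large subunit, in which their proteins lie in spite of their names. Mrps36 was counted with neither, since its protein is now known as a component of the 2-oxoglutarate dehydrogenase complex. Of the 78 genes, 33 (42.3%) had the start of another protein-coding gene on the opposite strand within 1000 bp of their own in Gencode vM21, against 16.6% of 8839 tested protein-coding genes. In 18 of the 33 the 2 starts were divergent, and in the other 15 the 2 genes overlapped at their starts. Mrpl46 and Mrps11 form such a pair by themselves, their starts being 412 bp apart.

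Promoter windows of 250 bases before and 50 bases after the start were found in RefSeq (GRCm38.p6) for 69 of the 78 genes. They were searched on both strands for the letters of 6 motifs, none of which contains another. The core of the NRF1 motif, GCATGCGC, was found for 8 of 69 genes (11.6%), against 6.03% of 7545 tested genes and 3.05% of all 27025 genes with a window. The ETS core CCGGAAG, which GABP also reads, was found for 26 genes (37.7%), against 19.6% of the tested and 9.93% of all genes. The YY1 core ATGGCGGC was found for 12 genes (17.4%), against 5.29% of the tested and 2.6% of all genes. The Sp1 box GGGCGG was found for 49.3%, which lies between the 62.6% of tested genes and the 38.2% of all genes, and the TATA box TATAAA was found for 5 genes (7.25%), against 9.90% and 15.7%. The CCAAT box CCAAT was found for 39.1%, against 43.8% and 41.1%. These matches describe letters in a window, and no test was made of them.

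The 120 bases before the RefSeq start are given for the 5 genes that were lower in both XX and XY than in XO oocytes, as described further on, and for Mrpl22, the only gene with 2 of the motifs NRF1, ETS and YY1 in these bases. Capitals mark the letters of any of the 6 motifs on either strand. They lie at chr5:129715377-129715496 (plus strand) for Mrps17, chr6:92184024-92184143 (minus) for Mrps25, chr11:115604020-115604139 (plus) for Mrps7, chr13:100744660-100744779 (minus) for Mrps36, chr13:14613038-14613157 (minus) for Mrpl32 and chr11:58171544-58171663 (plus) for Mrpl22.
Mrps17: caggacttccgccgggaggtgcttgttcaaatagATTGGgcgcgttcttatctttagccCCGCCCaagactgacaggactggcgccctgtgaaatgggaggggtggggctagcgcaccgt
Mrps25: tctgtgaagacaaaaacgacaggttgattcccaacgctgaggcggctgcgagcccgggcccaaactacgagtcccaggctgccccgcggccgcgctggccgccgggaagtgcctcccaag
Mrps7: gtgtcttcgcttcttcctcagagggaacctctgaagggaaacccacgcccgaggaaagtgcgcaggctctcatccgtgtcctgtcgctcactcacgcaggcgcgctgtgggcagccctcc
Mrps36: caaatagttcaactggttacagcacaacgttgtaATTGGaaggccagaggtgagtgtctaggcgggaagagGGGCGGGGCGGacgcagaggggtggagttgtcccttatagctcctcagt
Mrpl32: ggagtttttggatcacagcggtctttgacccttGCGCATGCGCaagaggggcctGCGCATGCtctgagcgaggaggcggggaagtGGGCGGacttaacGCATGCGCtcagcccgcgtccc
Mrpl22: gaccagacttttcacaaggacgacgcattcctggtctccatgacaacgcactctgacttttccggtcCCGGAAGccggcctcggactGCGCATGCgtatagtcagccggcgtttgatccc
Mrpl32 held the NRF1 core 4 times, 2 of them overlapping, whereas the bases of Mrps25 and Mrps7 held none of the 6 motifs. The 5 genes that were lower in XX and XY therefore had no motif in common in these bases. The RefSeq start lies inside the Gencode gene for Mrpl32 and Mrps7, so that all the bases printed for these genes belong to the Gencode gene. It also lies inside for Mrps25, which ends at 92184033, and for Mrpl22, which starts at 58171661. For these genes only the last bases printed belong to the gene.

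Samples had between 2130145 and 3157338 UMIs on genes, of which between 5428 and 12733 fell on the 78 genes. The 12 oocyte markers summed to between 18389 and 31701 normalized CPM in every sample. The 9 granulosa cell markers with values summed to between 49.0 and 92.7, the 6 theca and stroma markers to between 2.13 and 8.55, and the 5 blood, immune and endothelial markers to between 16.6 and 134 (highest in XO3). By genotype, the last list ranged from 20.0 to 49.7 in XX, from 16.6 to 134 in XO and from 27.0 to 59.2 in XY, and its part in the results was not tested. These last 3 lists held 12, 9 and 10 markers. The markers without values, such as Amh, Foxl2 and Ptprc, were not analysed here.

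XO1 and, to a lesser degree, XY1 stood apart from the other samples of their genotypes. Of the 48 genes that were expressed enough to be tested, 27 (56.3%) were in XO1 less than 0.5 times both XO2 and XO3, against 33.5% of all 10993 tested genes. In XY1 13 (27.1%) were less than 0.5 times both XY2 and XY3, against 10.9%, and in XX1 1 gene was (2.08%, against 0.801%). Mrps18b measured 2.59 normalized CPM in XO1, 128 in XO2 and 173 in XO3, and 3.25, 20.8 and 42.6 in XY1, XY2 and XY3. Mrpl22 measured 1.04, 54.3 and 120 in the XO samples, from 2, 105 and 212 UMIs, and Mrpl37 had no UMI in XO1 and 24 and 21 in XO2 and XO3. These genes were picked after their values were seen, as examples. Mrpl24 measured 73.0 in XO1 and 633 and 609 in XO2 and XO3. Other genes were higher in XO1, such as Mrpl47 with 680 against 232 and 203, and Mrpl42 with 411 against 175 and 177. Transcripts of the mitochondrial genome, ribosomal RNAs and mRNAs alike, were also high in these samples. mt-Rnr2 measured 73135 normalized CPM in XO1 and 50993 in XY1, and between 11554 and 22702 in the other 7 samples. The mitochondrial mRNAs summed to 70624 in XO1 and 46228 in XY1, and to between 9971 and 25262 in the others. The difference of XO2 and XO3 from XO1 correlated across the 48 genes with that of XY2 and XY3 from XY1, with Spearman's rho = 0.85, and across all 10993 tested genes with rho = 0.82. These points share their libraries and are not independent. The part of the mitochondrial transcripts in these differences was not tested. Results that rest on XO are given with and without XO1.

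**Figure D1:**
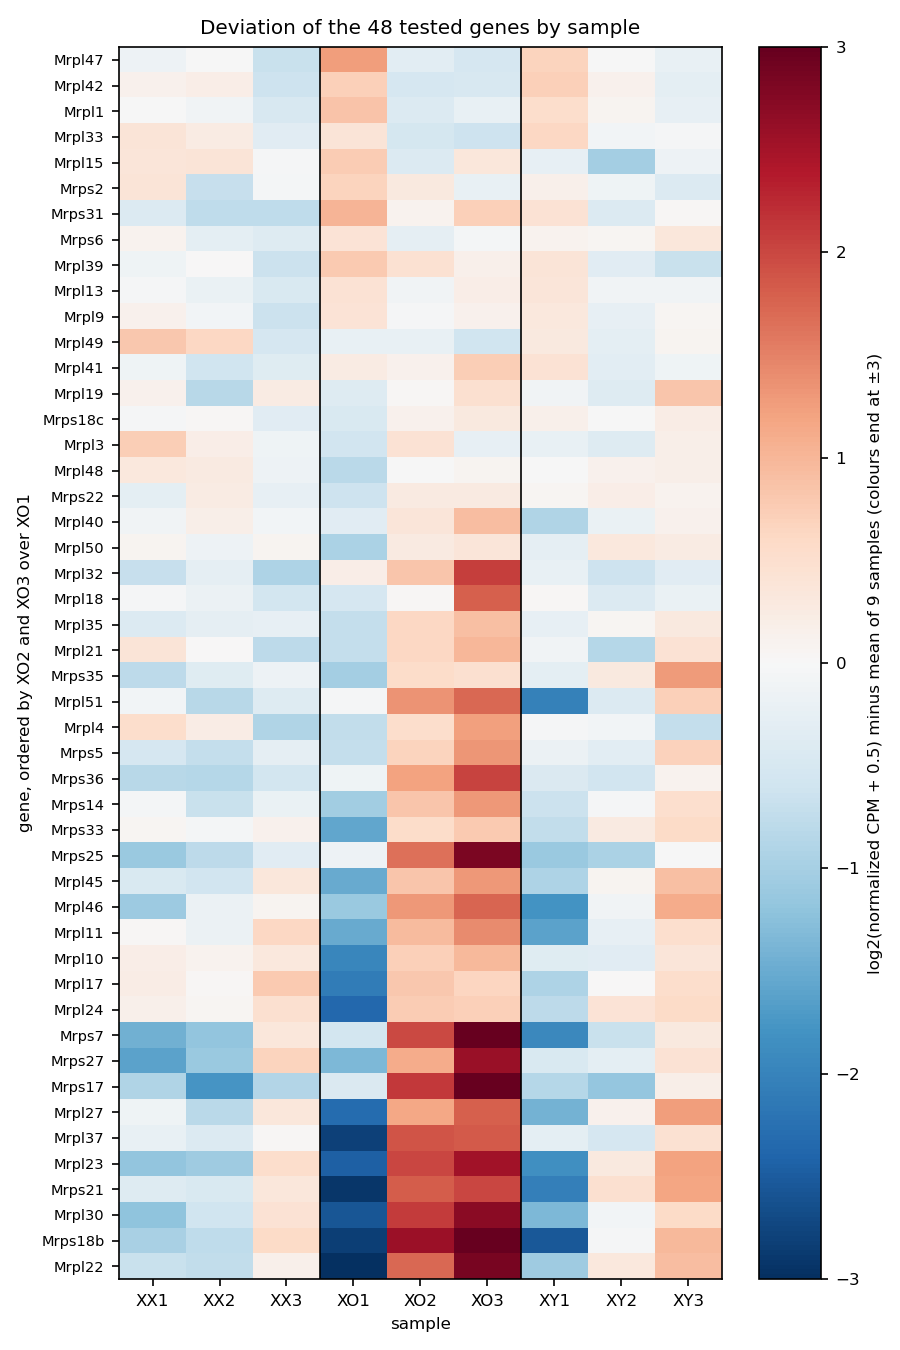
Deviation of each of the 48 tested genes (rows) from its own mean over 9 samples (columns, grouped by genotype), on the scale log2(normalized CPM + 0.5). Rows are ordered by the difference of XO2 and XO3 from XO1; the lowest rows, down to Mrpl22, are blue in XO1, red in XO2 and XO3 and mostly blue in XY1, while the uppermost rows, such as Mrpl47 and Mrpl42, are red in XO1 and XY1.

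All 78 genes had at least 1 UMI in the 9 samples together, and 59 had a UMI in every sample. Their levels were spread widely. The mean over samples was at least 100 normalized CPM for 8 genes, between 10 and 100 for 25, between 1 and 10 for 34 and below 1 for 11, with a median of 5.31. The 5 highest genes held 61.3% of the 81098 UMIs of all 78. The 30 genes that did not pass the filter on low counts held 967 of these UMIs. Spearman's rho of the levels of the 78 genes between any 2 samples was 0.70 to 0.96 over the 36 pairs of samples, so that the order of the genes was largely shared.

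Mrpl48 was the highest, with 687 normalized CPM on average. It measured 840, 814 and 603 in the 3 XX samples, 383, 670 and 710 in XO and 669, 739 and 754 in XY. The genotypes overlapped. Mrps33 followed with 447, then Mrpl24 (434), Mrpl47 (313) and Mrpl42 (263). Mrpl24 encodes uL24m, which has a bacterial counterpart, as does uL29m, the product of Mrpl47. Levels divided by the length of the principal transcript are given beside them, per kb. UMIs were counted at the 5′ end of transcripts, so levels per kb are lowered by length and do not rank genes by abundance. Per kb, Mrps33 was first with 404 normalized CPM, followed by Mrpl42 with 395 and Mrpl24 with 324. Mrpl48, whose transcript is 4285 bases long, came sixth with 160.

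The lowest 5 were Mrpl53 (6 UMIs in all samples together), Mrpl52 and Mrps10 (3 each), and Mrpl2 and Mrpl28 (2 each). Mrpl2 encodes uL2m of the catalytic core. Mrpl28 had no UMI in XX, which allows a mean of up to 0.337 normalized CPM, the amount of 3 UMIs over the 3 XX samples. This floor covers counting error only. Low levels were not limited to 1 kind of protein. The 29 large subunit genes numbered as bacterial counterparts had a median of 8.92 normalized CPM (0.0911 to 434) and the 22 others one of 3.94 (0.133 to 687), Mrpl47 being among the others by its number. In the small subunit, split by gene number as well and not by protein, the medians were 5.59 for 15 genes and 3.52 for 11. Per kb the medians were 3.47 and 2.46 in the large subunit and 2.69 and 2.78 in the small subunit. Across the 78 genes the mean level correlated with the GC content of the transcript with rho = −0.58, against −0.26 across 10977 tested genes with a gene model, as a description of genes that share libraries. The 48 tested members had a median GC content of 48.6% and the 30 others one of 54.0%.

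**Figure D2:**
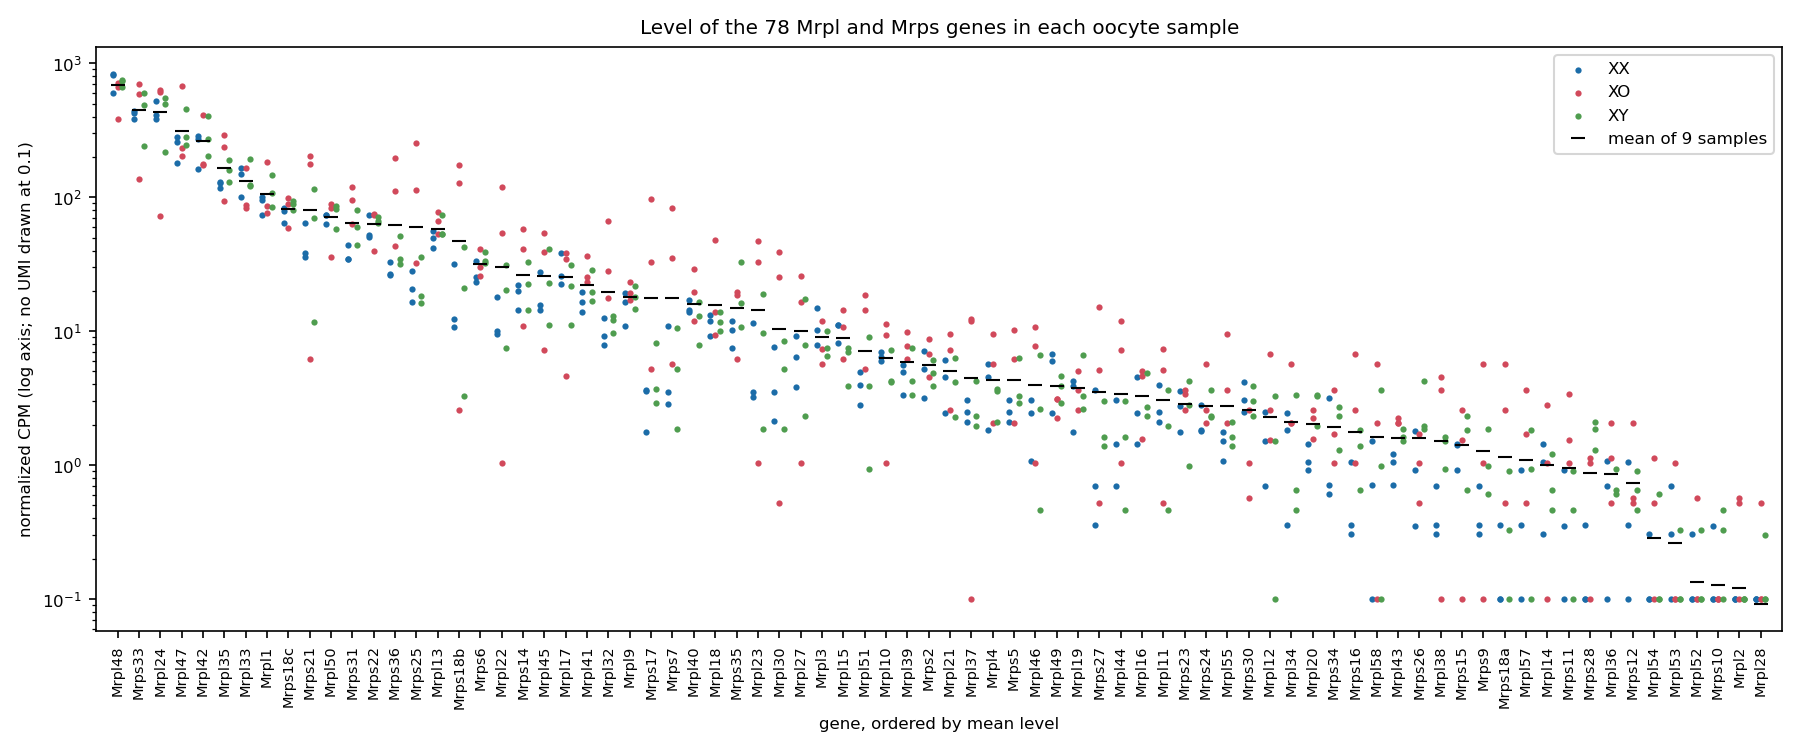
Level of each of the 78 genes (x axis, ordered by mean) in the 9 samples, in normalized CPM on a log axis, with samples without a UMI drawn at 0.1. Points are samples coloured by genotype and the dash is the mean of 9 samples; means run from 687 for Mrpl48 down to below 1 for 11 genes, and XO points of genes such as Mrps18b and Mrpl22 spread widely.

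Genes chosen for their roles showed the same spread. The stalk that calls translation factors to the ribosome is built from uL10m, uL11m and bL12m, and their genes were low, with Mrpl10 at 6.30, Mrpl11 at 3.07 and Mrpl12 at 2.27 normalized CPM (3.69, 1.01 and 1.72 per kb). Mrpl3, which encodes uL3m near the peptidyl transferase centre, measured 9.10 (2.29 per kb). Mrpl45, the gene of a protein that anchors the ribosome to the inner membrane, measured 25.8 (10.6 per kb), and Mrpl44, a protein related to ribonuclease III, 3.38 (2.37 per kb). Mrpl58, which encodes a peptidyl-tRNA hydrolase that rescues stalled ribosomes, measured 1.62 (0.623 per kb) and had no UMI in 3 samples. In the small subunit, Mrps12 of the decoding centre measured 0.731, Mrps16 1.77 and Mrps34 1.91 (0.828, 0.690 and 2.08 per kb), whereas Mrps22 measured 63.0 (52.6 per kb). Mrps30 measured 2.58 (0.776 per kb).

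The 3 genes related to bacterial S18 differed in level and in steadiness. Mrps18c measured 78.7, 83.0 and 64.0 normalized CPM in XX, 59.0, 88.9 and 99.4 in XO and 89.7, 80.7 and 94.5 in XY. It was the steadiest of the 48 tested genes, with a coefficient of variation of 16.3% over 9 samples. Mrps18b measured 10.7, 12.3 and 32 in XX, with the XO and XY values given above, and varied by 129%. Mrps18a had between 0 and 10 UMIs per sample and a mean of 1.15 normalized CPM. Per kb the 3 means were 129, 43.8 and 1.30. The median coefficient of variation of the 48 tested genes was 48.6%, against 42.5% for all tested genes. Next were Mrps6 (19.6%), Mrpl48 (19.7%), Mrps22 (19.8%) and Mrpl13 (20.2%), of which Mrps6 and Mrpl13 were named after their values were seen.

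XX oocytes were compared with XO oocytes to see whether levels depend on the number of X chromosomes. Of the 48 tested genes, 8 were lower in XX than in XO at an unadjusted p below 0.05 (edgeR's quasi-likelihood test, two-sided), which is 16.7% of them, and none was higher. Of all 10993 tested genes, 16.7% were lower and 1.40% higher by the same rule, so the share among the mitochondrial ribosomal genes was that of the background. After Benjamini-Hochberg adjustment over all tested genes 0 remained, the edgeR adjusted p of the 8 genes being 0.20 to 0.26. The median log2 fold change was −0.61 for the 48 genes and −0.46 for all tested genes. The 8 genes were Mrps17, Mrps36, Mrpl32, Mrps25, Mrps31, Mrps7, Mrpl51 and Mrpl41. With spike-in totals as library sizes, which leave differences in the total of gene UMIs in place, only Mrps17 kept its call and no other gene was called, against 0.482% of all tested genes lower and 2.64% higher. The median was then 0.15 for the members and 0.42 for all tested genes.

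Mrps17 (chr5:129715497-129722556, GRCm38) encodes uS17m, which has a bacterial counterpart. It measured 3.56, 1.75 and 3.66 normalized CPM in XX, 5.18, 32.6 and 97.1 in XO and 3.72, 2.93 and 8.15 in XY. All XX values were below all XO values, but XO1 was close to XX, with 10 UMIs. The log2 fold change was −3.88 ± 0.92 (SE, edgeR adjusted p = 0.20).

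Mrps25 (chr6:92169525-92184033) encodes mS25, a protein of the small subunit without a bacterial counterpart. It measured 16.4, 20.7 and 28 in XX, 32.1, 114 and 255 in XO and 16.3, 18.2 and 35.6 in XY. XX and XO did not overlap, whereas XY3 exceeded XO1. Its log2 fold change was −2.62 ± 0.67 (edgeR adjusted p = 0.20).

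Mrps36 (chr13:100735955-100744659), the dehydrogenase component named above, measured 26.7, 26.3 and 32.6 in XX, 43.5, 111 and 197 in XO and 34.9, 31.9 and 51.0 in XY. Its XX samples lay below all XO samples, with a log2 fold change of −2.04 ± 0.49 (edgeR adjusted p = 0.20). A pair of its processed copies, Mrps36-ps1 and Mrps36-ps2, had 31 and 38 UMIs in all, against 1247 of Mrps36, and reads could be split among them.

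Mrpl32 (chr13:14608184-14613165) encodes bL32m, which must be cleaved by the m-AAA protease before it joins the ribosome. It measured 9.26, 12.6 and 7.92 in XX, 17.6, 27.9 and 66.0 in XO and 13, 9.77 and 12.1 in XY. XO lay above both other genotypes without overlap. The log2 fold change of XX against XO was −1.90 ± 0.48 (edgeR adjusted p = 0.20). Its divergent neighbour Psma2, a proteasome subunit whose start lies 75 bp away, measured between 697 and 1526 in the 9 samples and differed by a log2 fold change of 0.29, which did not pass the threshold. Mrps18b and its divergent neighbour Ppp1r10, 45 bp away, were low and high in the same samples. Ppp1r10 measured 23.8, 251 and 351 in XO1, XO2 and XO3 and 31.6, 54.0 and 143 in XY1, XY2 and XY3. This pair was picked after its values were seen.

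Mrps31 (chr8:22411361-22429665), a small subunit gene without a bacterial counterpart, was the only one of the 8 that was highest in XO1. It measured 44.2, 34.7 and 34.4 in XX, 119, 63.6 and 96.0 in XO and 79.9, 44.3 and 60.4 in XY. The XX samples lay below all other samples, though XX1 lay below XY2 by a narrow margin. The log2 fold change was −1.30 ± 0.33 against XO (edgeR adjusted p = 0.20) and −0.70 ± 0.33 against XY (edgeR adjusted p = 0.90), which did not pass the threshold.

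Mrps7 (chr11:115603925-115608036), the gene of uS7m in the head of the small subunit, measured 2.85, 3.50 and 11 in XX, 5.70, 35.2 and 82.4 in XO and 1.86, 5.21 and 10.6 in XY. XX3 was above XO1, so that the groups overlapped, and the log2 fold change was −2.80 ± 0.93 (edgeR adjusted p = 0.21). The call was lost without XO3 (−1.80) and without XX1 (−2.36). Mrpl51 and Mrpl41 had smaller changes, of −1.69 ± 0.69 and −0.76 ± 0.32 (edgeR adjusted p = 0.25 and 0.26), and both lost their call under 11 or more alternatives, among them leaving out XO3 or any XX sample and TMM scaling on the genes. Mrpl51 measured 4.99, 2.80 and 3.96 in XX and 5.18, 14.5 and 18.6 in XO, and Mrpl41 measured 19.6, 14.0 and 16.5 in XX and 25.4, 23.3 and 36.1 in XO. Neither gene overlapped, by a narrow margin for Mrpl51.

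**Figure D3:**
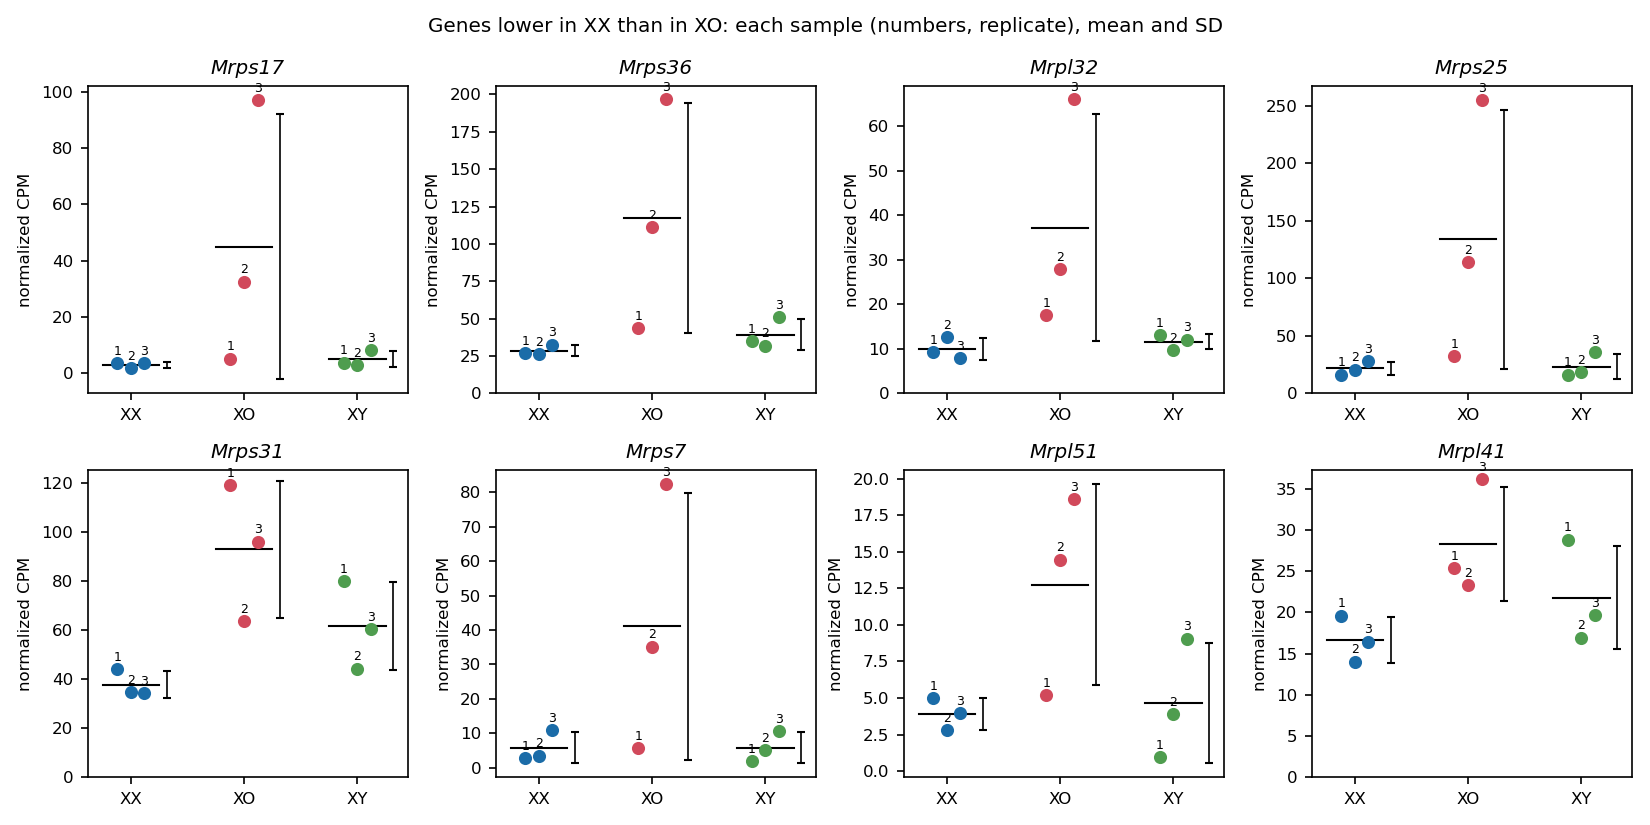
Normalized CPM (y axis, linear) of the 8 genes that were lower in XX than in XO at p below 0.05, in each sample by genotype, with the replicate number above each point, the mean as a line and the SD as a bar. XO3 is the highest of all 9 samples in 7 panels and XO1 in that of Mrps31, and in the panel of Mrps7 XO1 lies between XX samples.

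The comparison depended on XO1. Without it, 23 of 52 tested genes were lower in XX and 1 higher, against 31.9% and 3.19% of 11590 tested genes. All 8 genes above were among the 23. The median log2 fold change was then −0.84. Mrps18b, which had measured −2.46 ± 1.18 (edgeR adjusted p = 0.29) with XO1, reached −3.0 without it. The gene that was higher was Mrpl33, with 0.76. The split also depended on the scaling. With TMM factors made from genes and not spike-ins, 6 genes were lower (all of the 8 but Mrpl41 and Mrpl51) and 3 higher in XX (background 6.02% and 5.90%), the 3 being Mrpl3, Mrpl48 and Mrpl49, and the median of all tested genes moved from −0.46 to −0.033. With gene totals and no factor, the median of all tested genes was 0.10. On the batch-regressed log2 values of the authors, limma called 6 genes lower and 24 higher (background 7.78% and 36.3%). The median of the members was then 0.50.

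Replicates of XX and XO did not overlap, with XX lower, for 8 of 48 genes against 13.6% of all tested genes. In addition to 7 of the 8 above, this was Mrpl39. The small subunit genes had the larger median change, −1.24 for 15 tested genes, with 4 lower and all 15 fold changes negative, against −0.55 for 32 large subunit genes, with 3 lower. No test was made of this difference. Beside them, 27 of 60 tested genes of cytosolic ribosomal proteins were lower in XX than in XO (median −1.51) and 16 of 57 nuclear genes of oxidative phosphorylation (median −0.80). Of all tested genes 16.7% were lower.

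**Figure D4:**
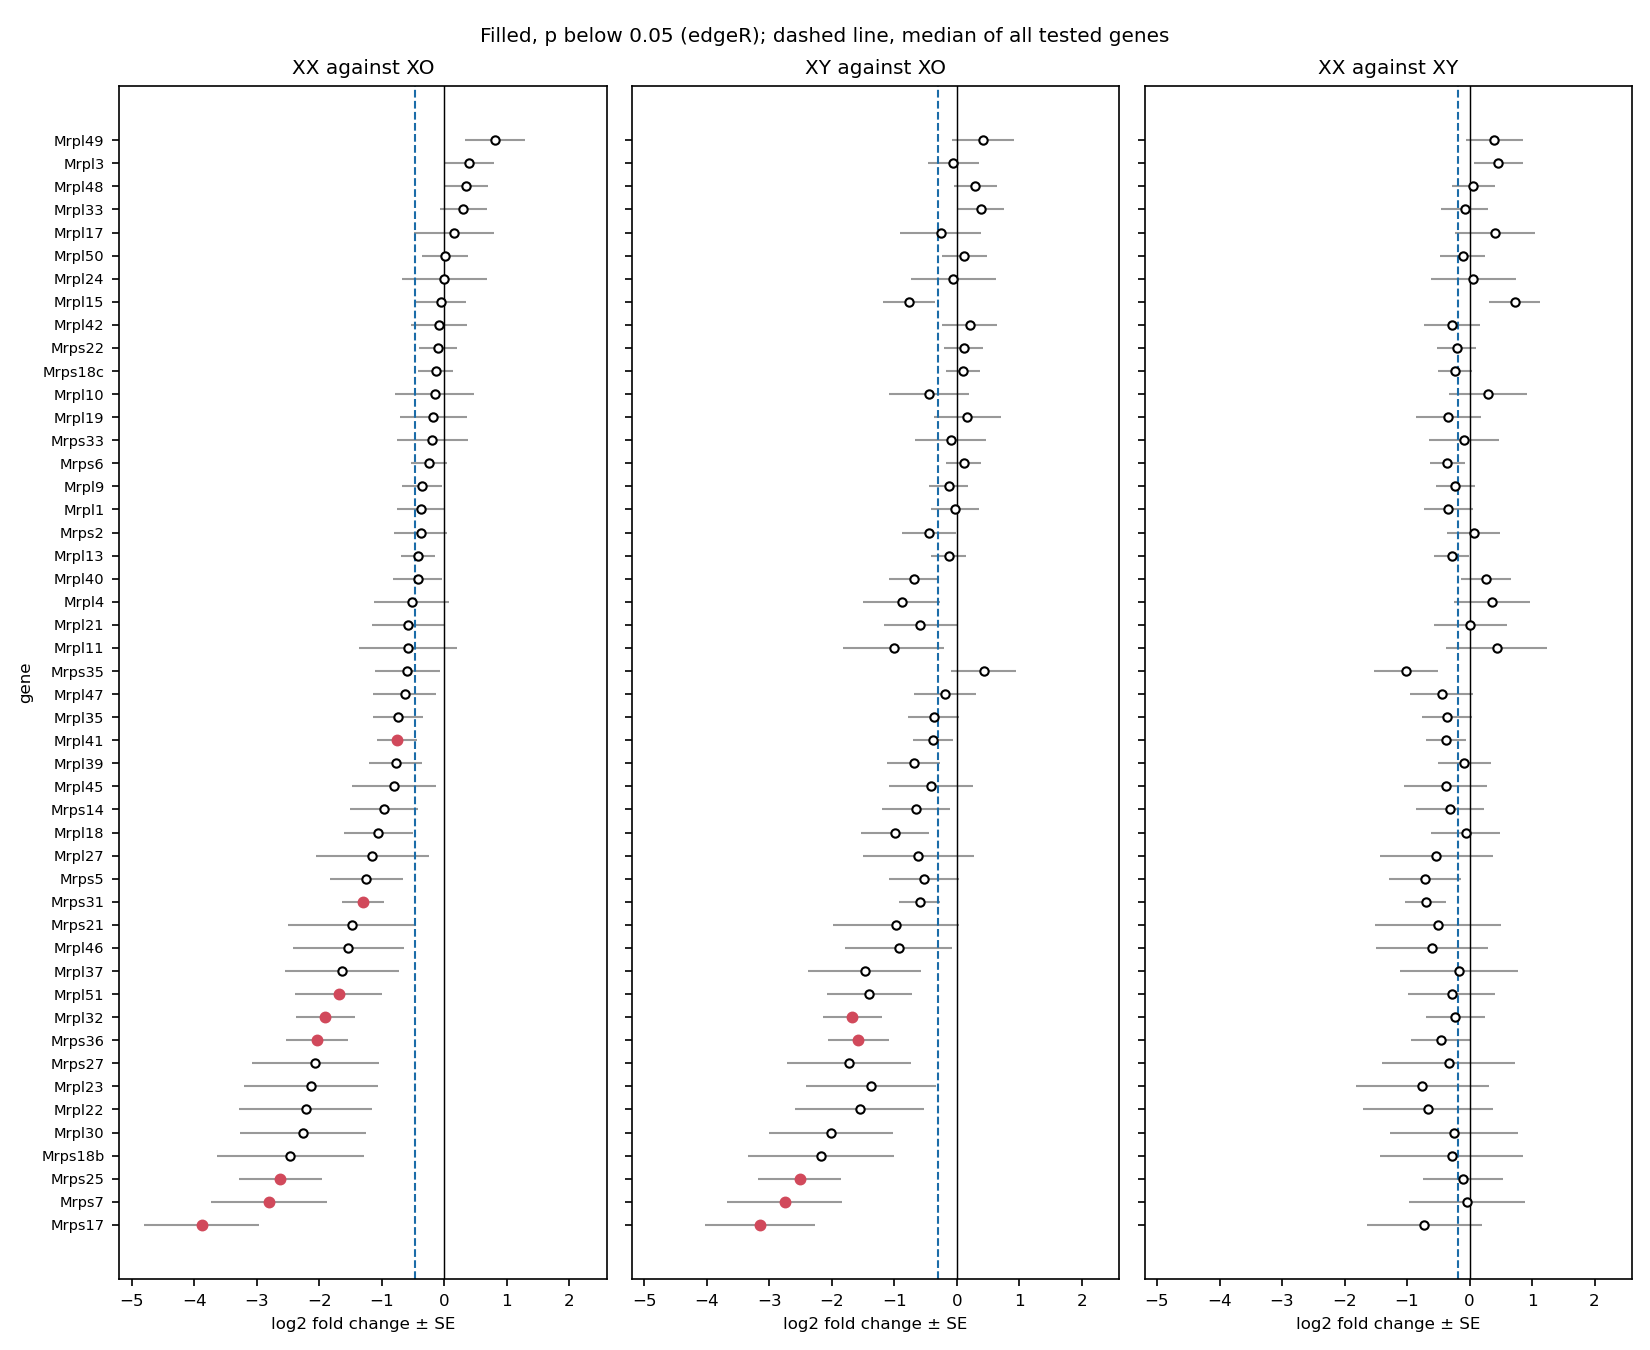
Log2 fold change with its SE (x axis) of the 48 tested genes (rows, ordered by XX against XO) in the 3 comparisons, from edgeR; filled points passed an unadjusted p below 0.05 and the dashed line is the median of all 10993 tested genes. Most points lie left of zero in both comparisons with XO, with 8 and 5 filled points, and around the dashed line in XX against XY, where none is filled.

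XY oocytes were compared with XO oocytes, which differ by the Y chromosome and by breeding. This comparison shares the XO samples with the one above. Of 48 genes, 5 were lower in XY (10.4%) and none higher, against 8.24% and 1.69% of all tested genes. No gene passed after adjustment (smallest edgeR adjusted p = 0.49). The 5 genes were Mrps25 with −2.51 ± 0.66, Mrps17 with −3.15 ± 0.88, Mrpl32 with −1.67 ± 0.47, Mrps36 with −1.57 ± 0.48 and Mrps7 with −2.76 ± 0.93, and their values per sample stand above. Only Mrpl32 had no overlap between replicates, with 6.34% of all tested genes lower without overlap. The median was −0.56 for the 48 genes and −0.30 for all tested genes. With the replicate number as a block, 10 genes were lower, against 14.1% of all tested genes, and Mrps31, Mrps18b, Mrpl30, Mrpl51 and Mrps27 joined the 5. Without XO1, 19 of 52 were lower and 1 higher (background 24.2% lower and 660 of 11590 genes higher). Without XO1 and XY1, 16 were lower (background 21%). Mrps7 lost its call without XO3 (−1.75) or without XY2 (−2.60), and Mrps36 without XY2 (−1.38).

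XX and XY oocytes were compared to see the effect of a Y in place of the second X chromosome. None of the 48 genes passed an unadjusted p of 0.05 in edgeR, and none in DESeq2 with either set of factors, against 5.80% of all tested genes in edgeR. On simulated counts for this comparison, 39% of genes changed 2-fold and 92% of those changed 4-fold were called, so changes of 2-fold could have been missed. The simulation gave all genes the same dispersion (0.20) and no sample that stood apart, so these shares may be too high for more variable genes. The log2 fold changes ran from −1.02 ± 0.52 for Mrps35 to 0.72 ± 0.41 for Mrpl15. Mrpl15, which encodes uL15m, measured 11, 11.2 and 8.23 normalized CPM in XX and 6.97, 3.91 and 7.55 in XY, without overlap (edgeR adjusted p = 1.00). It was the only gene with XX above XY in all samples (4.15% of all tested genes), and Mrps31 and Mrpl35 were below (11.7%). The last 2 were separated by less than the level of a UMI. Mrps31 measured 44.17 in XX1 and 44.27 in XY2, and Mrpl35 measured 129.17 in XX3 and 129.21 in XY1. The median of the 48 genes was −0.24, against −0.19 for all. Without XO1 and XY1, 7 of 52 genes were lower in XX (background 13.7%).

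The summed level of the 78 genes was 3301, 3208 and 2969 normalized CPM in XX, 2810, 4234 and 5151 in XO and 3171, 3459 and 3844 in XY. XX against XO did not differ beyond the spread (3159 ± 171 and 4065 ± 1180, SD, n = 3, exact permutation p = 0.40, two-sided, of which 0.10 is the smallest this design allows), nor did XX against XY (3491 ± 338 in XY, exact permutation p = 0.30, n = 3) or XY against XO (exact permutation p = 0.50, n = 3). As a share of gene UMIs, the genes took 0.370 to 0.374% in XX, 0.235% in XO1, 0.358 and 0.362% in XO2 and XO3, 0.320% in XY1 and 0.400 and 0.403% in XY2 and XY3. On this scale XX lay above XO (exact permutation p = 0.10, n = 3), so that the direction depends on the scale. The p of XX against XY was 1.0 (exact permutation test, n = 3) and that of XY against XO 0.40 (exact permutation test, n = 3). UMIs per spike-in UMI were compared as well. They were 0.773, 0.603 and 1.81 in XX, 0.357, 1.00 and 0.977 in XO and 0.368, 0.582 and 1.29 in XY. Samples had between 5388 (XX3) and 18532 (XY1) spike-in UMIs. Over all 15 such tests, those of the subunits included, the smallest p after Benjamini-Hochberg adjustment was 1.0 (exact permutation tests).

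The ratio of the large to the small subunit sums ranged less in XX than in the other genotypes. It was 3.34, 3.42 and 2.63 in XX, 4.64, 1.88 and 1.55 in XO and 4.22, 2.82 and 2.23 in XY. XO1 and XY1 had the highest ratios of all 9 samples, and the other XO samples the lowest 2. The large subunit sum varied less, between 2128 and 3011 normalized CPM, than the small subunit sum, which ran from 491 in XO1 to 1943 in XO3. The mean ratios, 3.13 ± 0.43 in XX, 2.69 ± 1.70 in XO and 3.09 ± 1.02 in XY, did not differ beyond the spread (exact permutation p = 0.80 for XX and XO, 1.0 for XX and XY and 0.70 for XY and XO, n = 3). Without XO1 the log2 ratio of XX over XO moved from 0.22 to 0.87.

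**Figure D5:**
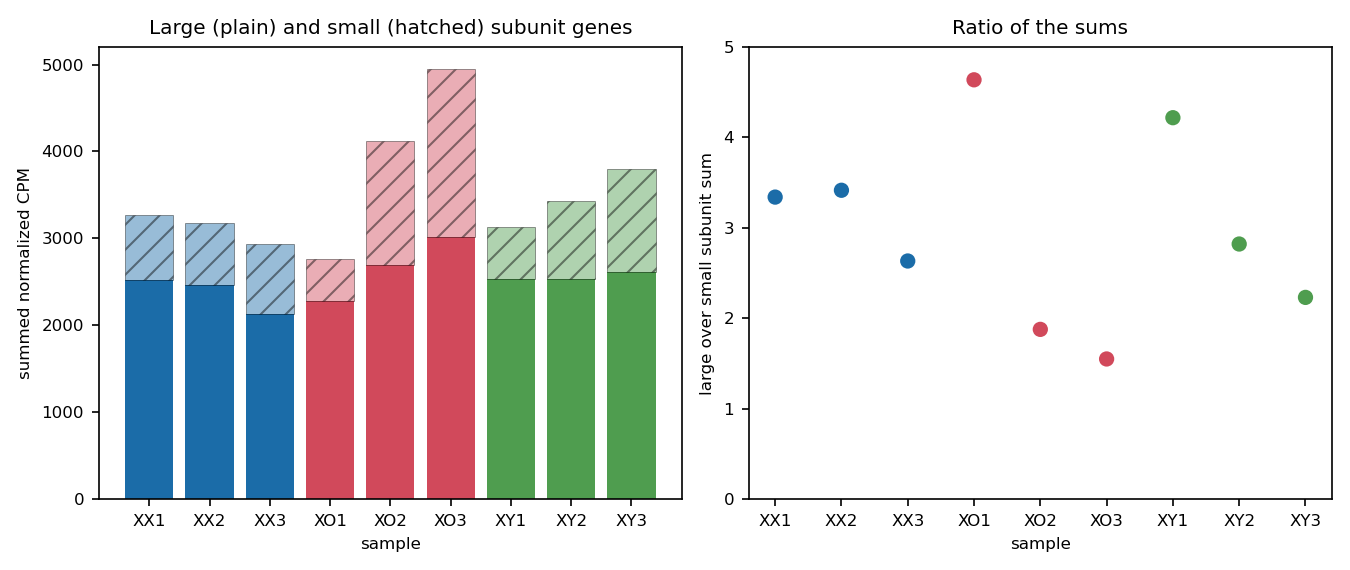
Summed normalized CPM of large (plain) and small (hatched) subunit genes per sample (left), and the ratio of the 2 sums (right, y axis from 0), coloured by genotype. The hatched part is smallest in XO1 (491) and tallest in XO3 (1943), and the ratio is 4.64 and 1.55 in these samples.

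Other genes of mitochondrial translation were taken from 4 lists of 60 genes in all, of which 44 were tested. They hold mitoribosome proteins with other names, translation factors, assembly factors and genes of mitochondrial transcription and DNA maintenance. In XX against XO 6 were lower and 1 higher (background 16.7% and 1.40%), in XX against XY 2 were lower (background 4.39%), and in XY against XO 3 were lower and 2 higher (background 8.24% and 1.69%). Their median log2 fold changes were −0.46, −0.13 and −0.33. None passed after adjustment in edgeR. By list, 1 of 4 ribosomal proteins with other names was lower in XX than in XO, 1 of 11 translation factors, 2 of 18 assembly factors with 1 higher, and 2 of 11 transcription genes. Without XO1, the 4 lists together had 18 lower and 2 higher of 48 in XX against XO (background 31.9% and 3.19%), and without XO3 2 lower of 45 (background 7.95%).

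Mtrf1, a mitochondrial release factor, measured 86.9, 95.9 and 85.9 normalized CPM in XX, 176, 174 and 194 in XO and 132, 122 and 163 in XY. The 3 genotypes did not overlap and replicates were tight. Its log2 fold change was −1.02 ± 0.25 in XX against XO (edgeR adjusted p = 0.20) and −0.63 ± 0.25 in XX against XY (edgeR adjusted p = 0.77), the latter lost with TMM factors (−0.47) and without any 1 of the XX or XY samples (−0.49 to −0.73). Rpusd4, a pseudouridine synthase of mitochondrial RNA, measured 9.97, 11.9 and 12.5 in XX, 14.5, 41.9 and 76.2 in XO and 10.2, 12.0 and 11.8 in XY. XO lay above both without overlap (−1.94 ± 0.51 for XX against XO and −1.95 ± 0.51 for XY against XO, edgeR adjusted p = 0.20 and 0.49).

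Mterf2, of the mitochondrial transcription termination factor family, was high in XY. It measured 9.26, 8.05 and 6.09 in XX, 9.32, 11.4 and 5.65 in XO and 17.2, 21.2 and 20.2 in XY. XY lay above all other samples, and the log2 fold change was −1.32 ± 0.34 in XX against XY (edgeR adjusted p = 0.40) and 1.15 ± 0.34 in XY against XO (edgeR adjusted p = 0.49). Dap3, which encodes the GTP-binding small subunit protein mS29, measured 9.32, 31 and 66.6 in XO1, XO2 and XO3 and between 7.70 and 13.9 in the other 6 samples. Twnk, the mitochondrial DNA helicase, measured 3.11, 19.1 and 54.2 in XO and between 2.79 and 9.14 elsewhere. Both were lower in XX than in XO (−1.64 ± 0.59 and −1.86 ± 0.76, edgeR adjusted p = 0.22 and 0.25) and in XY than in XO (−1.55 ± 0.59 and −2.77 ± 0.81, adjusted p = 0.49 for both). XO overlapped with the other genotypes through XO1 for both, and of these calls that of Twnk in XY against XO was kept under all alternatives run for it, the other 3 being lost without XO3. Both calls in XX against XO were also lost with TMM factors and without any 1 of the XX samples, and that of Dap3 in XY against XO without any 1 of the XY samples. Mgme1, a mitochondrial exonuclease, was lower in XX than in XO (−1.30 ± 0.45, edgeR adjusted p = 0.21) and lost its call with TMM factors, without XX3 and without XO3. Mettl15, which methylates the mitochondrial small subunit RNA, moved the other way, with 54.1, 63.7 and 41.7 in XX, 36.2, 34.1 and 28.8 in XO and 66.9, 54.4 and 43.5 in XY. XO lay below both (0.69 ± 0.28 in XX against XO and 0.73 ± 0.28 in XY against XO, edgeR adjusted p = 0.26 and 0.49), and the calls were lost without XO2 or XO3, and without XX2 and XY1 respectively.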

How the data were processed

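The deposited counts are UMIs per gene. The authors aligned stranded, paired-end reads to GRCm38 and the Gencode transcriptome with Hisat2 (version not given in the sources used here) and counted UMIs of 5′ exons. The second deposited matrix holds a signal called normalized CPM, which equals the CPM of gene UMIs divided by a TMM factor that was computed on the ERCC spike-ins, as recomputed here. The third deposited matrix holds log2 values from which batch effects (surrogate variables, sva) had been removed by the authors, which served for 1 alternative. The XO column without a number was taken as XO1. The columns of the other samples carry their titles.

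Counts were tested in edgeR 4.0.16 by its quasi-likelihood test (filterByExpr by genotype, 10993 genes, 1 mean per genotype over all 9 samples, TMM factors of the spike-ins), at an unadjusted p of 0.05 and with Benjamini-Hochberg adjustment over all tested genes. The samples of a genotype are biological triplicates by the study's methods, and no label ties a pool to animals, so p-values measure the spread between pools. The procedure was tested on simulated data. In XX against XO, 37% of genes changed 2-fold and 96% of those changed 4-fold were called. Sums were compared by exact permutation tests (scipy). Alternatives used DESeq2 1.42.0, limma 3.58.1 and sva 3.50.0. GC content, length and neighbours came from Gencode vM21, in which all 78 gene identifiers were found, 72 with the same coordinates. Depth limits genes with few UMIs, and floors cover counting error only.

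Whether equal replicate numbers pair samples was judged from deviations from genotype means, correlated across genes. XY and XO samples sharing a number gave 0.82, 0.27 and 0.77. XX and XO samples gave 0.45, −0.43 and 0.66, and XX and XY samples gave 0.42, −0.058 and 0.71. These values rest on 3 samples per genotype, of which XO1 and XY1 stood apart, and do not establish a pairing. The main fits used no pairing, and the replicate number served as a block in 1 alternative only.

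The members and lists were chosen with earlier results of these data known. Genes were named by a rule: members at p below 0.05 in a comparison (at most 12), the 5 highest and 5 lowest by mean level, a fixed list of members with known roles, and at most 6 genes of the pathway lists per comparison. Genes outside it are said to be chosen after their values were seen or serve as examples of XO1 and XY1 or as counts of 5 or fewer.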

Additional observations from a re-analysis of the deposited data

How the results depend on the processing

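Samples were left out 1 at a time. The number of mitochondrial ribosomal genes called then ran from 5 to 24 for XX against XO, from 0 to 2 for XX against XY and from 3 to 20 for XY against XO, and that of the pathway lists from 2 to 20, from 1 to 3 and from 3 to 15. The highest of these counts were reached without XO1. The share of all tested genes called was also highest there, with 35.1% for XX against XO and 29.9% for XY against XO. It was lowest without XX1 for XX against XO (7.16%) and without XY2 for XY against XO (3.23%). In these 2 settings 5 and 3 mitochondrial ribosomal genes were called. The medians of the mitochondrial ribosomal genes ran from −0.84 to −0.40, from −0.34 to 0.050 (without XY3) and from −0.65 to −0.16. The log2 ratio of summed levels ran from −0.57 to −0.16, from −0.21 to −0.069 and from −0.43 to −0.013, and that of the subunit ratios from −0.058 to 0.87, from −0.17 to 0.31 and from −0.090 to 0.85.

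The share of all tested genes called under the same setting stands in brackets. For XX against XO, the count of 8 (18.1%) became 13 with DESeq2 and the spike-in factors (21.2%), 27 of 78 without the filter on low counts (14.1%), 18 with sva covariates, 4 of them higher (38.4%), 30 on batch-regressed values, 24 of them higher (44.1%), 1 with spike-in totals as library sizes (3.12%) and 26 without XO1 and XY1 (39.8%), an alternative chosen after seeing the data. For XX against XY, 0 (5.80%) became 1 with gene totals (5.55%), 2 of 78 without the filter (4.33%), 6 with sva covariates (23.5%), 6 on batch-regressed values (23.1%) and 7 without XO1 and XY1 (16.6%). For XY against XO, 5 (9.93%) became 2 with spike-in totals (1.24%), 17 of 78 without the filter (9.75%), 13 with sva covariates, 4 of them higher (28.1%), 28 on batch-regressed values, 23 of them higher (44.0%), and 16 without XO1 and XY1 (24.6%). With the replicate number as a block, the counts were 13 (23.0%), 2 (9.16%) and 10 (16.6%), and whether equal numbers pair samples is not known. The cause was not tested.

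The medians reversed on batch-regressed values for XX against XO (0.50) and XY against XO (0.55), and moved to −0.035 for XX against XY. With spike-in totals they were 0.15 for XX against XO and 0.43 for XX against XY, and the log2 fold changes of Mrpl41 in XX against XO and of Mrps31 in XX against XY became 0.13 and 0.028. As a share of gene UMIs the log2 ratio of summed levels was 0.22, −0.0096 and 0.23. Per spike-in UMI it was 0.45 for XX against XO and 0.51 for XX against XY. XX measured 1.06 ± 0.65 UMIs per spike-in UMI (SD), highest in XX3. The cause was not tested. No other value named for a called gene turned its direction under the alternatives run. With spike-in totals, Mrps17 kept its call in XX against XO, and Mrps17 and Mrps25 kept theirs in XY against XO. Depth limits most the 30 genes that were not tested.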
